A study of Cavia porcellus with 12 samples.

Results

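The miR-29 family was examined in small RNA sequencing data of guinea pig ventricular cardiomyocytes. Its members were all entries listed under the human precursors hsa-mir-29a, hsa-mir-29b-1, hsa-mir-29b-2 and hsa-mir-29c. An entry is 1 read sequence assigned to 1 precursor, so the different entries of a precursor are its isoforms. Over all tables, the family had 83 distinct entries. It had 55 of 1588 entries with a precursor in the table of DOX 1 h and DMSO 1 h (the 1 h table). It had 45 of 1320 in the table of DOX 22 h and DMSO 22 h (the 22 h table). In the table of DOX 22 h and DOX 1 h (the third table) it had 82 of 2362. Rows without a precursor are left out of these counts. With them, the tables held 1610, 1335 and 4979 rows. By precursor, the third table listed 16 entries for hsa-mir-29a, 19 for hsa-mir-29b-1, 21 for hsa-mir-29b-2 and 26 for hsa-mir-29c.

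The cells came from hearts of adult female Hartley guinea pigs, perfused in reverse through the aorta and freed with enzymes, and were kept at room temperature. Doxorubicin (DOX) is an anthracycline used against cancer, and DMSO is the solvent used as its control. The labels gave 12 libraries in 4 groups of 3, which were DMSO for 1 h, 10 µM DOX for 1 h, DMSO for 22 h and 10 µM DOX for 22 h. Each table held 1 mean of normalized reads per entry over both of its groups, and the entry names of the 22 h table and of the third table named 1 library a side, each time replicate 1. From the means of these 2 tables, whole reads of 3 libraries (DOX 22 h, DMSO 22 h and DOX 1 h, each replicate 1) could be solved for 1216 of 1323 entries listed in both, summing to 474736, 440362 and 623625 reads. The comparisons of libraries therefore had no replicates. They compare 3 libraries and not the conditions, and all intervals are 95% exact (Clopper-Pearson) intervals that cover counting error only, since PCR reads without molecular identifiers are not independent molecules. Of the 1 h table only the means were used, and no reads were solved from it. The authors' own comparison in that table was not used, so DOX and DMSO at 1 h were not compared here.

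miRNAs are short RNAs cut from hairpin precursors, and each hairpin can yield a 5p and a 3p arm. An miRNA finds its target mRNAs mainly through its seed, bases 2 to 8 from its 5′ end, and lowers their translation and stability. The 3p arms of the miR-29 family share 1 seed and are known for lowering collagens, fibrillins and elastin, which makes the family a brake on extracellular matrix in the heart, where fibroblasts are the main source of matrix. The hairpins of miR-29a and miR-29b-1 lie together in the genome, as do those of miR-29b-2 and miR-29c, and both miR-29b hairpins give the same 3p miRNA.

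The sequences below are the forms of the 3p arm on which the results turn, read from the entry names and written 5′ to 3′ with T for U. Capitals mark the family seed AGCACCA where a form begins with it, or GCACCA where a form begins at the second base of the seed. AGCACCA was read from the head of the bases that all 4 members share at their earliest 3p start. That these are bases 2 to 8 is background knowledge, and a table of mature miRNAs was not used here. Forms of hsa-mir-29a are shown first, since they held most of the family's reads, and forms of hsa-mir-29c beside them differ in the middle of the sequence but have the same 3′ ends.
mir-29a, 17 bases: GCACCAtctgaaatcgg
mir-29a, 18 bases: GCACCAtctgaaatcggt
mir-29a, 19 bases: GCACCAtctgaaatcggtt
mir-29a, 20 bases: GCACCAtctgaaatcggtta
mir-29a, 21 bases, last base A: GCACCAtctgaaatcggttaa
mir-29a, 21 bases, last base T: GCACCAtctgaaatcggttat
mir-29a with whole seed, 19 bases: AGCACCAtctgaaatcggt
mir-29a with whole seed, 20 bases: AGCACCAtctgaaatcggtt
mir-29c, 17 bases: GCACCAtttgaaatcgg
mir-29c, 18 bases: GCACCAtttgaaatcggt
mir-29c, 19 bases: GCACCAtttgaaatcggtt
mir-29c, 20 bases: GCACCAtttgaaatcggtta
mir-29c, 21 bases, last base A: GCACCAtttgaaatcggttaa
mir-29c, 21 bases, last base T: GCACCAtttgaaatcggttat

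The next sequences are listed under more than 1 precursor, so that their reads cannot be assigned to a hairpin. Of 65 distinct sequences in the family, 12 were listed under both hsa-mir-29b-1 and hsa-mir-29b-2, and 3 under these and hsa-mir-29c.
29b-1, 29b-2 and 29c, 13 bases: GCACCAtttgaaa
29b-1, 29b-2 and 29c, 14 bases: GCACCAtttgaaat
29b-1, 29b-2 and 29c, 15 bases: GCACCAtttgaaatc
29b-1 and 29b-2, 16 bases: GCACCAtttgaaatca
29b-1 and 29b-2, 17 bases: GCACCAtttgaaatcag
29b-1 and 29b-2, 18 bases: GCACCAtttgaaatcagt
29b-1 and 29b-2, 19 bases: GCACCAtttgaaatcagtg
29b-1 and 29b-2, 20 bases: GCACCAtttgaaatcagtgt
29b-1 and 29b-2, 21 bases: GCACCAtttgaaatcagtgtt
29b-1 and 29b-2, 21 bases, other end: GCACCAtttgaaatcagtttt
29b-1 and 29b-2 with whole seed, 17 bases: AGCACCAtttgaaatca
29b-1 and 29b-2 with whole seed, 19 bases: AGCACCAtttgaaatcagt
29b-1 and 29b-2 with whole seed, 20 bases: AGCACCAtttgaaatcagtg
29b-1 and 29b-2 with whole seed, 21 bases: AGCACCAtttgaaatcagtgt
29b-1 and 29b-2 with whole seed, 21 bases, other end: AGCACCAtttgaaatcagtga

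The 5p arms were rare, and the most abundant form of each is given for completeness, in lower case since no seed was marked.
mir-29a 5p: tgatttcttttggtgttca
mir-29b-1 5p: tggtttcatatggtggtttag
mir-29b-2 5p: ggtttcacatggtggcttaga
mir-29c 5p: accgatttctcctggtgtt

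The order of the members was the same in the 3 tables, with miR-29a far above miR-29c and both above miR-29b. The values are sums of the authors' mean normalized reads over the entries of an arm. The tables were normalized separately, so a value is comparable only within its table. The 3p arm of hsa-mir-29a summed to 47454 in the 1 h table, 29304 in the 22 h table and 38224 in the third table. The 3p arm of hsa-mir-29c summed to 7219, 4423 and 6212 in the same order. This put miR-29a 6.57, 6.62 and 6.15 times above miR-29c. The 22 h sum of hsa-mir-29c leaves out its form of 18 bases, which was not analysed at 22 h. That form had means of 447 in the 1 h table and 388 in the third table, so the ratios rest on unlike sets of forms. The tables are not independent, since the 22 h table and the third table share a library and the power of 10 of each 1 h mean was taken from the third table. The 3p arm of hsa-mir-29b-1 summed to 658, 490 and 615, and that of hsa-mir-29b-2 to 633, 487 and 601. Both were close to each other in each table, and they share 15 sequences of the 3p arm. A mean carries no spread between libraries, so no error is given for these levels.

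Among all precursor arms, the miR-29a 3p arm ranked 27 of 346 in the 1 h table, 28 of 319 in the 22 h table and 28 of 427 in the third table. The miR-29c 3p arm ranked 56, 65 and 60, and the 3p arms of hsa-mir-29b-1 and hsa-mir-29b-2 ranked between 135 and 139. The whole family held 0.956% of the summed means of the 1 h table, 0.728% of the 22 h table and 0.770% of the third table. The family was thus a well covered but small part of the miRNA content of these preparations.

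Nearly all of the family's signal came from the 3p arm. Its share of the family's summed mean was 99.7% in the 1 h table, 99.8% in the 22 h table and 99.6% in the third table. The 5p arm of hsa-mir-29c was the highest of the 5p arms, with a summed mean of 124 in the 1 h table, 42.7 in the 22 h table and 124 in the third table. The 5p arm of hsa-mir-29b-2 summed to 37.0, 19.8 and 44.3. The 5p arm of hsa-mir-29a summed to 12.3 in the 1 h table and 10.1 in the third table, and that of hsa-mir-29b-1 to 5.10 in the third table, and both were not listed in the 22 h table. Among all arms, the 5p arm of hsa-mir-29c ranked 211 of 346, 243 of 319 and 210 of 427, and the other 5p arms ranked lower, so few 5p entries could be compared between libraries. With another 5′ start, the most abundant 5p forms of hsa-mir-29c and hsa-mir-29b-2 had means of 12.9 and 6.55 in the third table.
mir-29c 5p, other start: ccgatttctcctggtgttca
mir-29b-2 5p, other start: gtttcacatggtggcttaga

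**Figure D1:**
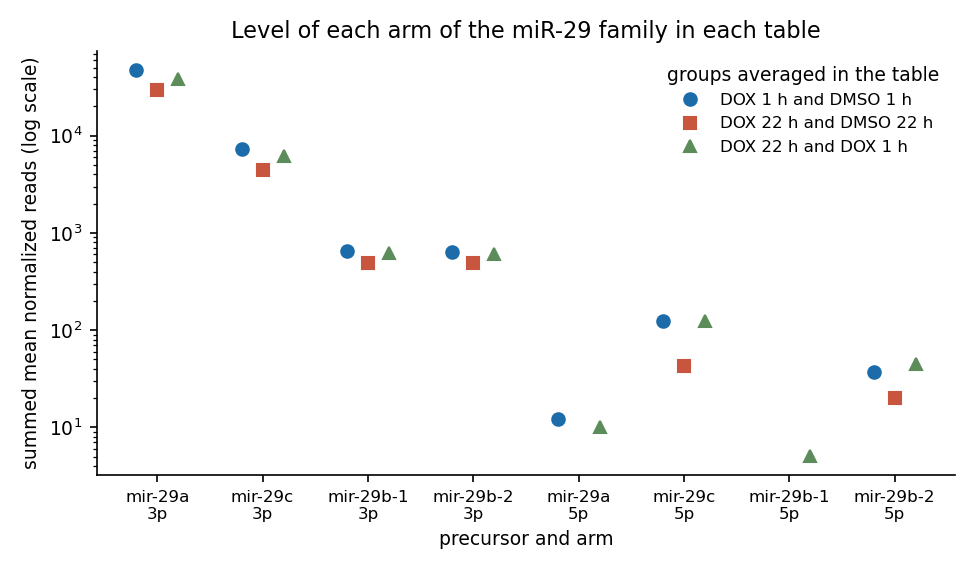
Summed mean normalized reads (log axis) of each precursor arm of the miR-29 family, with 1 symbol per table. Each symbol sums the authors' means for the 2 groups named in the key and has no error. In the 22 h table and the third table these means rest on 1 library a side. The 3p arm of mir-29a is highest in each table, at 47454, 29304 and 38224, and a missing symbol is an arm not listed in that table.

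The forms differed at both ends. No family entry in any table had a base before the seed AGCACCA, and all entries of the tables with a precursor were 12 to 21 bases long. In the third table, 18 family entries began with the whole seed, 43 began at its second base and 1 entry of the 3p arm began elsewhere. The forms that began at the second base carried most of the signal. Whether the bases missing at the 5′ end were absent from the RNA or lost in trimming or read handling was not tested, so these starts describe the listed reads and not the seed used in the cell. Forms with the whole seed made up 5.22% of the 3p mean in the 1 h table, 6.14% in the 22 h table and 5.51% in the third table. The third table also listed 7 mature miRNA names of the family, each at 0, as were all but 15 of its 2588 mature names. No entry outside the family began with AGCACCA or GCACCA, and the family's own entries that did so were 2.58% of the third table's entries with a precursor.

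The members differed in how often a listed read began with all bases of AGCACCA. In the third table, forms with the whole seed made up 5.45% of the 3p mean of hsa-mir-29a, 35.4% of that of hsa-mir-29b-1, 35.6% of that of hsa-mir-29b-2 and 0.0588% of that of hsa-mir-29c. In hsa-mir-29c this was 1 entry with a mean of 3.65. In the 22 h table the shares were 6.05%, 39.1%, 34.1% and 0%, and in the 1 h table they were 5.30%, 31.0%, 31.6% and 0%. In each table this share was highest for the 2 precursors of miR-29b and lowest for miR-29c. No listed entry was longer than 21 bases, so a 21-base form had no listed partner with the whole seed. How far this limit shifts the shares of the members was not tested. Among the solved reads of hsa-mir-29c at 22 h, no form with the whole seed was listed.

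The most abundant form of hsa-mir-29a was that of 19 bases in each of the 3 tables, with means of 17053, 10868 and 14570. The form of 20 bases followed with 16771, 8614 and 12426. The most abundant form that differed in its 5′ start was that of 20 bases with the whole seed, with means of 2127, 1452 and 1761. In hsa-mir-29c the form of 19 bases was also the most abundant, with means of 2567, 1749 and 2210. In hsa-mir-29b-2 it was the form of 18 bases, with 120, 95.04 and 104, and the most abundant form with another start was that of 21 bases, with 83.2, 78.7 and 84.9. In hsa-mir-29b-1 the most abundant form changed with the table. It was the form of 18 bases in the 1 h table (126), the form of 21 bases with the whole seed in the 22 h table (94.7) and the form of 20 bases in the third table (107). Its most abundant form with another start was that of 21 bases with the whole seed in the 1 h table (82.2) and in the third table (87.3), and that of 18 bases in the 22 h table (79.8). Thus 29a and 29c peaked at the same length and 3′ end, while the forms of 29b were spread more evenly.

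The comparison of the DOX 22 h with the DMSO 22 h library asks how the family stood after the longer exposure. The solved sums of the members lay between 0.791-fold and 1.19-fold, whereas forms of different length within a member differed in opposite directions. The forms of 17 and 18 bases of miR-29a, of 16 and 17 bases of miR-29c and of 18 and 19 bases of miR-29b were less abundant in the DOX 22 h library, and the forms of 21 bases of miR-29a and of 19 to 21 bases of miR-29c were more abundant there. Still shorter forms did not follow this order. The ratios below are of reads normalized with the authors' size factors, with 0.5 added to each normalized value. A value under 1-fold is lower in the DOX 22 h library.

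In hsa-mir-29a, the form of 18 bases had 1750 reads in the DOX 22 h library, 3072 in the DMSO 22 h library and 2538 in the DOX 1 h library. The DMSO 22 h library was the highest, and DOX 22 h was at 0.507-fold of it (interval 0.477 to 0.537). The form of 17 bases had 466, 611 and 629 reads in the same order, a ratio of 0.678 (0.5999 to 0.766). The shorter forms were not lower, with 119, 94 and 141 reads at 16 bases (1.13, 0.852 to 1.49), 45, 20 and 25 at 15 bases (1.98, 1.16 to 3.58) and 25, 23 and 26 at 14 bases (0.967, 0.526 to 1.78). The forms of 21 bases also went the other way. The form ending in A had 2682, 2031 and 3489 reads, and the form ending in T had 2908, 2223 and 3613. Together these forms of 21 bases stood at 1.17-fold (1.12 to 1.22) in DOX 22 h over DMSO 22 h, and their pair of ratios was nearly alike. Forms with the whole seed followed this in part. The form of 19 bases, which ends where the 18-base form ends, had 193, 312 and 252 reads, a ratio of 0.551 (0.457 to 0.660). The form of 20 bases had 1462, 1439 and 2114 reads, a ratio of 0.904 (0.840 to 0.972).

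The 2 most abundant forms of hsa-mir-29a had more than 1 whole-number solution and are given with all of them. For the form of 19 bases, 4 solutions were possible, with DOX 22 h over DMSO 22 h at 0.0342, 0.394, 1.14 or 3.59. For the form of 20 bases, 3 were possible, at 0.311, 1.23 or 6.54. The data do not choose between these values. The solved forms therefore covered only 29.3% of the miR-29a 3p mean of the third table, against 93.4%, 93.4% and 94.4% for hsa-mir-29c, hsa-mir-29b-1 and hsa-mir-29b-2. Over the solved forms, hsa-mir-29a had 9710 reads in DOX 22 h and 9892 in DMSO 22 h, 0.873-fold (0.849 to 0.898). Over the 12 combinations of solutions the whole arm lay between 0.313-fold and 2.35-fold, so that no direction can be given for miR-29a as a whole.

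In hsa-mir-29c, the form of 17 bases had 226 reads in DOX 22 h, 356 in DMSO 22 h and 367 in DOX 1 h, a ratio of 0.565 (0.476 to 0.669) at 22 h. The form of 16 bases had 79, 109 and 92 reads, a ratio of 0.646 (0.476 to 0.869). From 19 bases on, the direction was the opposite. The form of 19 bases had 2016, 1506 and 2420 reads, a ratio of 1.19 (1.11 to 1.27). The form of 20 bases had 1461, 892 and 2066 reads, a ratio of 1.46 (1.34 to 1.58). The forms of 21 bases together stood at 1.21 (1.11 to 1.32). The forms of 14 bases (22, 12 and 18 reads, 1.61, 0.773 to 3.61) and 15 bases (26, 21 and 16 reads, 1.10, 0.596 to 2.06) were not lower. The DMSO 22 h library thus had more of the forms of 16 and 17 bases and fewer of those of 19 to 21 bases than the DOX 22 h library. The form of 18 bases, with a mean of 388 in the third table, was not analysed at 22 h. Over all forms solved, hsa-mir-29c had 5088 reads in DOX 22 h and 3818 in DMSO 22 h, 1.19-fold (1.14 to 1.24).

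In miR-29b, the reads listed under both hairpins were added for each form, since the sequences are the same. The form of 18 bases had 146 reads in DOX 22 h, 200 in DMSO 22 h and 284 in DOX 1 h, a ratio of 0.650 (0.521 to 0.808) at 22 h. The form of 19 bases had 66, 117 and 113 reads, a ratio of 0.504 (0.365 to 0.684). The form of 20 bases had 178, 112 and 245 reads, a ratio of 1.41 (1.11 to 1.81). Thus in miR-29b as well, a form that was shorter by 1 base stood on the other side of 1. The forms of 17 and 21 bases showed no such split, with 48 and 41 reads (1.04, 0.672 to 1.62) and 39 and 46 (0.756, 0.479 to 1.18). The still shorter forms were not lower, with 65 and 35 reads at 14 bases (1.64, 1.08 to 2.57), 43 and 33 at 15 bases (1.16, 0.719 to 1.88) and 37 and 31 at 16 bases (1.06, 0.641 to 1.77). The full-seed forms of miR-29b did not follow the same order, since the form of 19 bases had 78 and 55 reads (1.26, 0.882 to 1.81), that of 20 bases 91 and 142 (0.571, 0.433 to 0.747) and that of 21 bases 152 and 192 (0.705, 0.565 to 0.876). Over all solved forms, hsa-mir-29b-1 had 459 reads in DOX 22 h and 516 in DMSO 22 h, 0.791-fold (0.696 to 0.899). hsa-mir-29b-2 had 484 and 488 reads, 0.882-fold (0.776 to 1.002), an interval that includes 1.

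Both miR-29b precursors were given nearly equal numbers of reads. Over the 11 shared sequences solved, hsa-mir-29b-1 held 48.7% (45.4 to 51.9) of 943 reads in DOX 22 h, 51.4% (48.3 to 54.5) of 1004 reads in DMSO 22 h and 51.8% (49.1 to 54.4) of 1377 reads in DOX 1 h. Each interval includes an equal split. The difference between the ratios of hsa-mir-29b-1 and hsa-mir-29b-2 is therefore one between identical sequences. The sequence of 14 bases listed under 3 precursors shows how far such values can spread. It had 25, 22 and 19 reads under hsa-mir-29b-1, 40, 13 and 14 under hsa-mir-29b-2, and 22, 12 and 18 under hsa-mir-29c, in the order DOX 22 h, DMSO 22 h and DOX 1 h. The sequence of 15 bases had 23, 18 and 22 reads under the first, 20, 15 and 24 under the second, and 26, 21 and 16 under hsa-mir-29c. The shared sequence of 13 bases was listed only in the third table, with means of 7.75, 9.13 and 10.8.

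**Figure D2:**
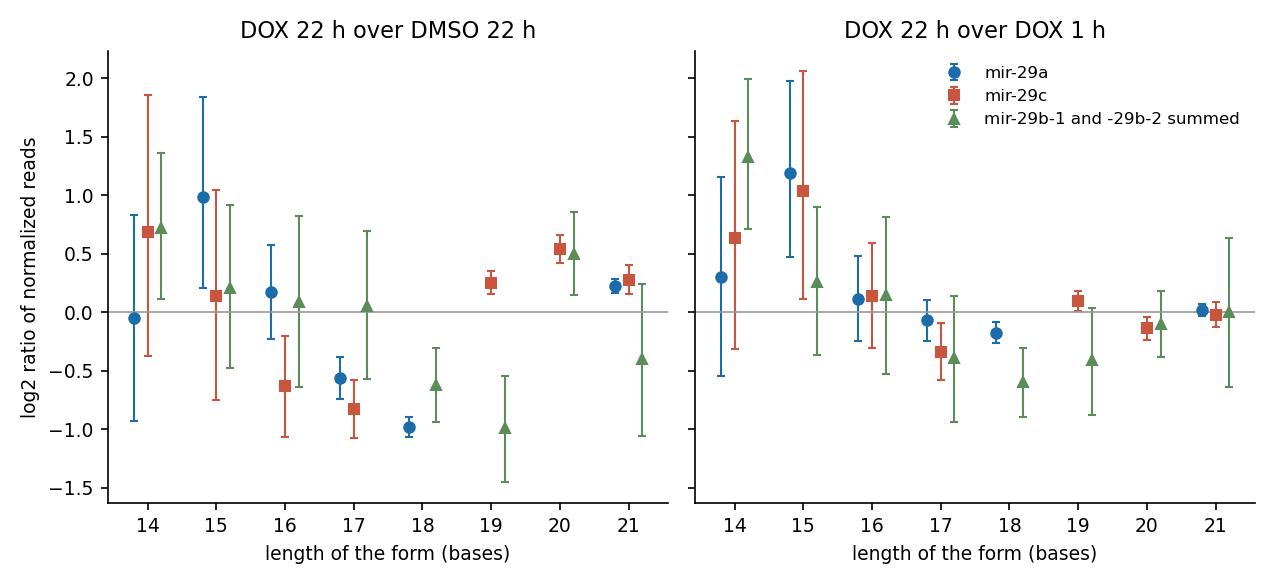
log2 ratio of normalized reads against the length of the form, for forms that begin at the second base of the seed, in DOX 22 h over DMSO 22 h (left) and DOX 22 h over DOX 1 h (right); points are single libraries compared and bars are 95% exact intervals for counting error. On the left the forms of 17 and 18 bases of mir-29a lie below 0 and those of 21 bases above it, while on the right the same forms lie near 0; the forms of 19 and 20 bases of mir-29a and of 18 bases of mir-29c are not drawn.

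The balance of short and long forms can be given as a share within a library, which no scaling between libraries can move. The classes of length were chosen after the values above had been seen, so their difference restates those values. Of the reads of hsa-mir-29a forms of 17, 18 or 21 bases that begin at the second base of the seed, those of 17 or 18 bases were 46.4% (45.3 to 47.5) in DMSO 22 h, 28.4% (27.4 to 29.4) in DOX 22 h and 30.8% (29.9 to 31.7) in DOX 1 h. For hsa-mir-29c the form of 17 bases was 16.4% (14.9 to 18.03) of the reads of 17, 20 and 21 bases in DMSO 22 h, 7.67% (6.74 to 8.70) in DOX 22 h and 9.01% (8.14 to 9.93) in DOX 1 h. For miR-29b the share of 17 or 18 bases against 20 or 21 bases was 60.4% (55.4 to 65.2) in DMSO 22 h, 47.2% (42.3 to 52.2) in DOX 22 h and 55.3% (51.4 to 59.1) in DOX 1 h. In each member the DMSO 22 h library had the highest share and DOX 22 h the lowest. For miR-29a and miR-29c, both DOX libraries lay close to each other and away from DMSO 22 h, whereas for miR-29b the interval of DOX 1 h overlapped those of both other libraries. With 1 library each, it cannot be told apart whether this belongs to the exposure or to the DMSO 22 h library itself.

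**Figure D3:**
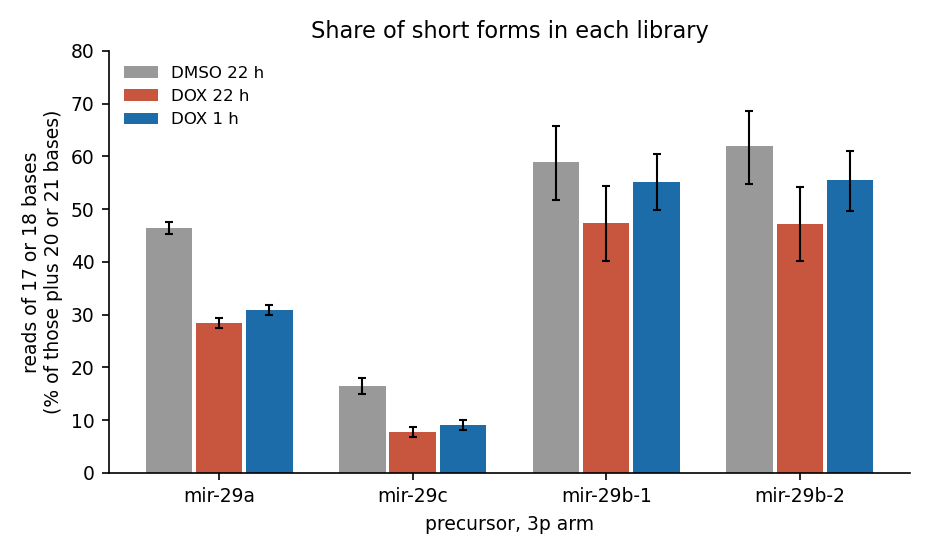
Share of reads of 17 or 18 bases among reads of 17, 18, 20 and 21 bases that begin at the second base of the seed, in percent, for the 3p arm of each precursor in the 3 libraries solved; bars are single libraries with 95% exact intervals for counting error. DMSO 22 h is highest for each precursor, at 46.4% for mir-29a and 16.4% for mir-29c; mir-29a lacks its form of 20 bases here and mir-29c its form of 18 bases.

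For comparison, the mean length of the reads was taken in the 138 precursor arms with at least 2 entries in the 22 h table, each of these solved, and at least 100 reads in every library. Arms with unsolved entries, among them that of hsa-mir-29a and those of other abundant miRNAs, are not included. The median difference of DOX 22 h minus DMSO 22 h was -0.012 bases, and the 10th and 90th percentile were -0.118 and 0.0826. The miR-29c 3p arm differed by 0.197 bases (19.6 against 19.4), a difference met or passed in 7 of the 138 arms, itself included. It leaves out the form of 18 bases, which was not analysed at 22 h. The 3p arm of hsa-mir-29b-2 differed by -0.351 bases, the lowest of the 138, and hsa-mir-29b-1 by -0.160. The lowest value includes the shared sequence of 14 bases, with 40 reads in DOX 22 h and 13 in DMSO 22 h under hsa-mir-29b-2. Under hsa-mir-29b-1 the same sequence had 25 and 22 reads. The mean length without this sequence was not taken. For miR-29b the mean length was thus shorter in DOX 22 h, against the direction of the share of short forms above. That share leaves out the forms of 14 to 16 bases, the form of 19 bases and those with the whole seed.

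Few entries of the family were past 2-fold at 22 h. Of 43 solved family entries, each with at least 10 reads over both libraries, 1 was more than 2-fold higher in DOX 22 h, against 6.09% of the 1216 entries compared. It was the shared sequence of 14 bases under hsa-mir-29b-2, at 2.68-fold (log2 1.42, interval 0.52 to 2.48), while the same sequence stood at 1.01-fold under hsa-mir-29b-1 and 1.61-fold under hsa-mir-29c. Also 1 was more than 2-fold lower, against 4.85% of all entries. It was the form of 19 bases of hsa-mir-29b-1, with 26 reads against 57 and a ratio of 0.411 (0.245 to 0.656). These were the highest and the lowest ratio in the family. The median log2 ratio was 0.02 over the family's entries and 0.00 over all entries. Past 1.5-fold, 4 family entries were higher, against 16.7% of all entries, and 10 were lower, against 13.6%. These counts take a shared sequence once for each precursor. The higher entries hold the 14-base sequence under both hsa-mir-29b-2 and hsa-mir-29c. The lower entries hold the 18-base, 19-base and whole-seed 20-base sequences of miR-29b under both hairpins. Of the rare 5p arms, hsa-mir-29c had 50 and 36 reads (1.23, 0.789 to 1.95) and hsa-mir-29b-2 24 and 16 (1.32, 0.680 to 2.69), and both intervals include 1.

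**Figure D4:**
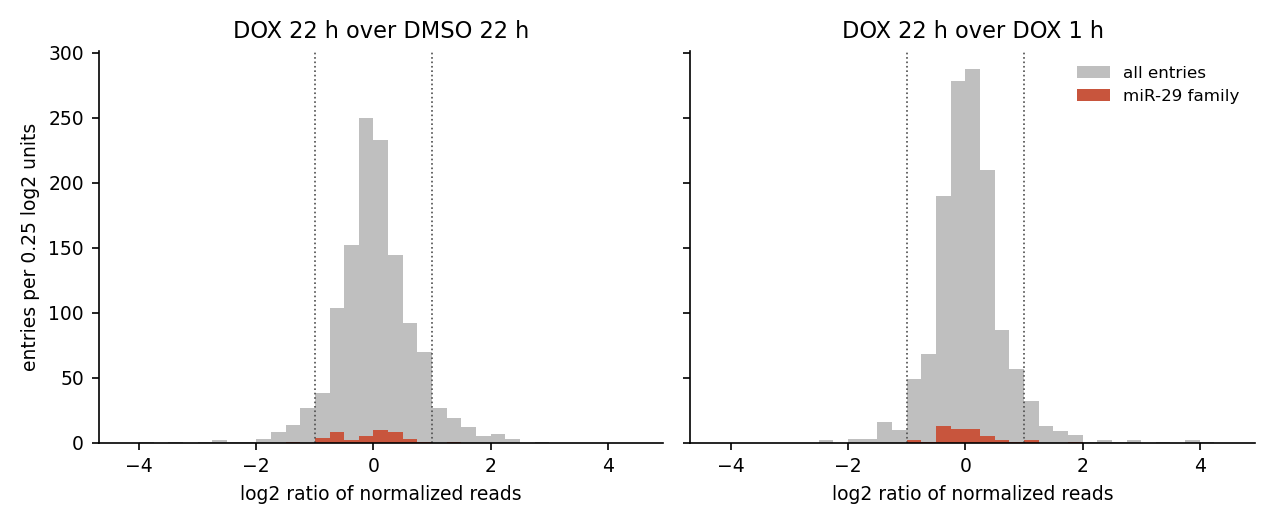
Number of entries by log2 ratio of normalized reads, in DOX 22 h over DMSO 22 h (left) and DOX 22 h over DOX 1 h (right), for all entries compared (grey) and those of the miR-29 family (red, drawn in front); dotted lines mark 2-fold. The family lies in the middle of the distribution, with medians of 0.02 and -0.05.

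The comparison of the DOX 22 h with the DOX 1 h library sets a late against an early time of exposure. These libraries also differ in how long the isolated cells were kept, and DMSO 22 h was not compared with DMSO 1 h. Time of exposure and time of keeping therefore cannot be told apart here. This comparison shares the DOX 22 h library with the comparison above. The values are of solved forms, without the 2 most abundant forms of hsa-mir-29a. hsa-mir-29c had 5088 reads in DOX 22 h and 6621 in DOX 1 h, which is 0.988-fold (0.952 to 1.02) after normalization. The solved forms of hsa-mir-29a had 9710 and 12908 reads, 0.967-fold (0.942 to 0.993). hsa-mir-29b-2 had 484 and 664 reads, 0.937-fold (0.832 to 1.06), and hsa-mir-29b-1 had 459 and 713 reads, 0.828-fold (0.734 to 0.932). Except for the sum of hsa-mir-29a and that of hsa-mir-29b-1, these intervals include 1. With the 12 combinations of solutions, the whole 3p arm of hsa-mir-29a lay between 0.282-fold and 1.83-fold, and no direction can be given for it.

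By length, the 18-base form of hsa-mir-29a stood at 0.887-fold (0.834 to 0.943) in DOX 22 h over DOX 1 h, and its forms of 21 bases at 1.01-fold (0.977 to 1.05). The 17-base form of hsa-mir-29c stood at 0.792-fold (0.668 to 0.937), its 20-base form at 0.909-fold (0.850 to 0.973) and its 19-base form at 1.07-fold (1.01 to 1.14). The 18-base form of miR-29b, summed over both hairpins, was lower in DOX 22 h, at 0.662-fold (0.538 to 0.810). The lowest ratio of the family was that of the same form under hsa-mir-29b-1, with 67 and 150 reads, 0.576-fold (0.424 to 0.771).

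The third table alone gave 1 solution for further entries that the 22 h table did not list, so more entries were compared here, 6 of them of the family. Of 49 family entries compared, 3 were more than 2-fold higher in DOX 22 h than in DOX 1 h, against 5.26% of 1330 entries, and 0 were more than 2-fold lower, against 2.56%. The 3 were forms of 14 or 15 bases. The shared 14-base sequence under hsa-mir-29b-2 had 40 and 14 reads and the highest ratio of the family, 3.57-fold (1.96 to 7.31). The 15-base form of hsa-mir-29a had 45 and 25 reads, 2.29-fold (1.39 to 3.94), and the 15-base sequence under hsa-mir-29c had 26 and 16 reads, 2.05-fold (1.08 to 4.17). Summed over both hairpins of miR-29b, the 14-base sequence had 65 and 33 reads, 2.51-fold (1.64 to 3.98). Under single other precursors these shared sequences stood at 1.67-fold (hsa-mir-29b-1) and 1.55-fold (hsa-mir-29c) for 14 bases and at 1.34-fold (hsa-mir-29b-1) and 1.07-fold (hsa-mir-29b-2) for 15 bases. Past 1.5-fold, 6 were higher, against 13.5% of all entries, and 3 were lower, against 9.17%. The 14-base sequence is counted among the higher under each of its precursors. The median log2 ratio was -0.05 over the family's entries and 0.04 over all entries.

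The solved 3p forms of the family, which covered 39.7% of its 3p mean in the third table, gave a profile over the 3 libraries. With the reads of the solved 3p forms summed over the family and put on 1 scale through the DOX 22 h library, the levels were 14844 normalized reads in DOX 22 h, 15603 in DMSO 22 h and 15334 in DOX 1 h. Of 180 other precursor arms with at least 100 reads in every library, the 5 with the smallest Euclidean distance of centred log2 values over the 3 libraries were the 3p arms of hsa-mir-199a-1 (0.0191), hsa-mir-151b (0.0311), hsa-mir-23a (0.0365), hsa-mir-199a-2 (0.0395) and hsa-mir-25 (0.0431). Over 3 libraries, and without the 2 most abundant forms of miR-29a, such a likeness is a description of the solved forms only.

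Other miRNAs known in cardiac fibrosis and matrix control were set beside the family. All 17 precursors of this list were listed in the 22 h table and in the third table, and 0 of 17 were past 2-fold in either comparison. Of 223 precursors summed in the same way, 3.14% were more than 2-fold higher and 3.59% lower in DOX 22 h over DMSO 22 h, and 2.24% higher and 1.79% lower in DOX 22 h over DOX 1 h. In DOX 22 h over DMSO 22 h, 8 of 17 were above 1-fold and the median was 0.992-fold. In DOX 22 h over DOX 1 h, 9 of 17 were above 1-fold and the median was 1.00-fold. Several of these sums rest on a small part of the precursor, since the most abundant forms had several solutions. The percentages that follow are of the mean in the third table over the entries also listed at 22 h. The solved forms were 1.74% of it for hsa-mir-21, known for promoting fibrosis, and 1.67% for hsa-mir-24-2. They were 0.497% for hsa-mir-24-1, 1.61% for hsa-mir-133a-1 and 0.741% for hsa-mir-26a-2. Some precursors had each entry of the 22 h table solved. Among these, hsa-mir-101-1 had 13438 reads in DOX 22 h and 11640 in DMSO 22 h (1.03-fold). In the same order, hsa-mir-214 had 256 and 192 (1.19-fold), and hsa-mir-15b had 5022 and 5040 (0.886-fold). hsa-let-7c had 5470 reads in DOX 22 h, 4278 in DMSO 22 h and 9107 in DOX 1 h, which was 1.14-fold and 0.772-fold. Over the list, log2 ratios ran from -0.47 (hsa-mir-24-2) to 0.25 (hsa-mir-214) at 22 h and from -0.37 (hsa-let-7c) to 0.50 (hsa-mir-26a-2) in the third table. All solved reads of hsa-mir-24-1 and hsa-mir-24-2 were of the 5p arm, so their ratios hold no read of the 3p arm.

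The cell preparation was checked with marker miRNAs, since miR-29 is also made by cells other than cardiomyocytes. All 7 cardiomyocyte precursors were present in each table, led by hsa-mir-1-2, with a summed mean of 1968086 in the 1 h table, 1678971 in the 22 h table and 2225175 in the third table. miRNAs of other cells were present too. The smooth muscle precursors, 2 of 2 and led by hsa-mir-143, summed to 1137334, 1001342 and 1190282, and the endothelial hsa-mir-126 to 258955, 182810 and 194322. The 4 fibroblast and mesenchymal precursors, led by hsa-mir-199a-1 or, in the 22 h table, hsa-mir-199a-2, summed to 22860, 13597 and 16551. The 4 red cell precursors, led by hsa-mir-486-2, summed to 2599, 1855 and 2397, and the 3 leukocyte precursors, led by hsa-mir-142, to 519, 302 and 425. No marker precursor was at 0 in the 22 h or the third table, and no value shows in which cells the miR-29 reads arose.

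Entries that only the third table listed are left out of the reads and percentages that follow. Between the libraries, the fibroblast and mesenchymal markers were the closest to even of the lists with each entry of the 22 h table solved. They had 14485 reads in DOX 22 h, 12764 in DMSO 22 h and 18705 in DOX 1 h, 1.01-fold (0.985 to 1.03) over DMSO 22 h and 0.996-fold (0.974 to 1.02) over DOX 1 h. The red cell list had 1717, 1971 and 3159 reads, 0.775-fold (0.726 to 0.827) and 0.699-fold (0.659 to 0.741). This sum was carried by hsa-mir-486-1 (0.738-fold over DMSO 22 h) and hsa-mir-486-2 (0.773-fold), which are also known in muscle, while hsa-mir-451a had 107 and 91 reads (log2 0.06, interval -0.35 to 0.48) and hsa-mir-144 20 and 9 (log2 0.95, -0.22 to 2.30), intervals that include 0. Over DOX 1 h, hsa-mir-486-1 stood at 0.656-fold, hsa-mir-486-2 at 0.717-fold and hsa-mir-451a (107 and 175 reads) at 0.787-fold, while hsa-mir-144 (20 and 7 reads) stood at log2 1.80 (0.58 to 3.36). The leukocyte list had 301, 301 and 311 reads, 0.889-fold (0.755 to 1.05) and 1.24-fold (1.06 to 1.46), with hsa-mir-142 (271 and 247 reads) at log2 0.50 (0.24 to 0.75) and hsa-mir-150 (13 and 37 reads) at -1.12 (-2.18 to -0.20) over DOX 1 h. For the endothelial marker, the 17 of 22 entries solved were 14.9% of its mean and had 26155, 23584 and 31927 reads, 0.986-fold and 1.05-fold. The solved entries of the cardiomyocyte list were only 1.03% of its mean and those of the smooth muscle list 1.08%, so no ratio is given for these lists. The smooth muscle hsa-mir-145, with 30.9% of its mean solved, had 5451, 3858 and 8003 reads. It stood at 1.26-fold over DMSO 22 h (log2 interval 0.27 to 0.39) and 0.876-fold over DOX 1 h. The solved 0.535% of hsa-mir-143 went the other way, at 0.616-fold and 1.10-fold. Of the cardiomyocyte precursors, 2 had each entry of the 22 h table solved. hsa-mir-208a had 3082, 2708 and 3283 reads, 1.01-fold over DMSO 22 h and 1.21-fold over DOX 1 h. This sum joins unlike arms, since its 3p arm had 2097, 2202 and 2014 reads and its 5p arm 985, 506 and 1269. hsa-mir-208b had 5919, 7309 and 8531 reads, 0.720-fold and 0.892-fold. In bulk RNA, fewer cells of a type and less RNA per cell cannot be told apart. The part of these cells in the miR-29 values was not tested.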

How the data were processed

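Reads were assigned to human precursors by the authors in the BaseSpace Small RNA application (version 1.0 per the labels; build hg19 in the submitters' processing notes), and for each of 3 comparisons a mean signal per entry was deposited, which is reads divided by DESeq2 size factors and averaged over both groups. The authors' tables also hold their own comparison (log2 fold change, its standard error, p-values, a status and a level per group derived from these). None of these columns was used, and 0 columns of other samples were left out.

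In the 1 h and 22 h tables the decimal mark of the mean was lost. It was restored with the power of 10 that brought each value nearest to the same entry of the third table, which gave 54 of 55 family entries at 1 h and 45 of 45 at 22 h. The restored 1 h means of the family were 0.840 to 2.02 times those of the third table. Every mean of the 22 h table and of the third table was a whole-number combination of the reads of 2 libraries (largest deviation 6.56e-07 and 6.98e-09 of a step). The reads of 1 library recurred in both tables. Of 1052 entries solved from the 22 h table alone, 1052 gave whole reads in the third table with this assignment and at most 132 with the others. Since both tables name DOX 22 h replicate 1, the recurring library was given that name and the others followed. The reads behind the means were solved for entries with exactly 1 solution (91.9% of those in both tables), and for the third table also where that table alone gave 1. The solver was tested on simulated data, with Poisson reads drawn around the solved reads of all entries and, for entries with several solutions, around 1 of them. The outcome of that test is not given here, and no value in the text is taken from it. Ratios used the authors' size factors, a pseudocount of 0.5 and at least 10 reads over both libraries. Called means past 2-fold, since 1 library a side allows no test. Arms were separated where starts lay more than 15 bases apart. Python 3.11.15, numpy 2.4.6, pandas 2.3.3 and scipy 1.17.1 were used.

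The members and lists were chosen with earlier results of these data known. Named entries are the most abundant per precursor and arm, the most abundant with another 5′ start, the highest and lowest ratio, and sequences under several of the 4 precursors. Other forms by length, and the classes of short and long forms, were chosen after their values were seen. Alternatives covered scaling, pseudocount, read minimum, shared sequences and the summary of a member.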

Additional observations from a re-analysis of the deposited data

How the results depend on the processing

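No paired analysis was possible because the tables that gave reads hold 1 library a side, so no replicate could be left out either. Over 103 alternatives, 78 stayed within the counting interval of the main value (or kept the order of the tables) and 25 moved. Part of the 78 had little or no room to move. Dropping the read minimum changed no member's ratio, and the pseudocount hardly changed any. Counting shared sequences once could not change hsa-mir-29a, which has none. A mean of at least 10 was met by each usable family entry at 1 h and 22 h. The count of 78 is therefore no measure of robustness. No member's main ratio was past 2-fold, so none could count as reversed, though signs differed as given below. Counting only sequences under 1 precursor lowered the family's summed mean to 54812 (1 h), 33750 (22 h) and 44588 (the third table). With the most abundant entry alone, miR-29a over miR-29c was 6.21 at 22 h and 6.59 in the third table. As a share of entries, whole-seed forms were 23.9%, 21.4% and 29.03%. With a mean of at least 10, the 3p share of the third table was 99.8%.

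For DOX 22 h over DMSO 22 h, the log2 ratio of hsa-mir-29a was -0.14 scaled by all recovered reads, 0.22 from its most abundant solved entry, -0.10 as the median over entries and 0.093 with the solutions nearest the median of all entries, an alternative chosen after seeing the data. That of hsa-mir-29b-1 was -0.0057 as the median over entries, and that of hsa-mir-29b-2 was -0.37 with at least 100 reads and -0.63 from its most abundant entry. For DOX 22 h over DOX 1 h, hsa-mir-29a was at 0.049 from its most abundant solved entry and -0.14 with the added solutions, hsa-mir-29b-2 at -0.40 and hsa-mir-29c at 0.10 from the most abundant entry, and hsa-mir-29c at 0.071 as the median over entries. Scaling by all recovered reads put hsa-mir-29c at 0.01 there, against -0.02, and counting shared sequences once put hsa-mir-29b-2 at 0.06, against -0.09. Past 1.5-fold there were 4 family entries higher and 10 lower at 22 h, and 6 higher and 3 lower in the third table, with shared sequences counted under each precursor. The cause was not tested, except that a lower fold limit counts more entries by construction and that single entries of 1 member differ in direction. Leaving out means with a restored decimal mark left no entry in the 1 h and 22 h tables. Taking the power of 10 from whole reads gave the same value for 45 of 45 family entries at 22 h.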
